A study of Mus musculus with 8 samples.

Results

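Expression of 10 neutrophil granule genes was compared in Zeb1-/- LSK cells, 5 that are switched on early in granulocyte development (Mpo, Elane, Prtn3, Ctsg and Ms4a3) and 5 that are switched on late (Lcn2, Ltf, Camp, S100a8 and S100a9). They were taken by name from the deposited table of 54532 genes, each name matched 1 row, and all 10 were among the 13560 genes with enough counts to be tested. The RNA-Seq libraries came from bone marrow LSK cells (Lin- SCA-1+ C-KIT+, the compartment that holds the stem cells and the earliest progenitors), sorted into EpCAM+ and EpCAM- fractions with 4 libraries each. All 8 libraries came from C57BL/6 mice treated to delete Zeb1, which encodes a transcriptional repressor, and were collected on day 14 after pIpC treatment had ended. The mice were Zeb1 fl/fl;Mx1-Cre+/-. The Mx1 promoter responds to interferon, which pIpC induces, and Mx1-Cre also deletes outside blood stem cells. Both fractions came from pIpC-treated mice, and whether they had responded alike to interferon was not tested. No library from a control mouse was part of the comparison. No age is stated for the mice of these libraries. The paper's supplement gives 8 to 12 weeks for the C57BL/6 mice of another experiment, on Zeb1 expression. The study's methods name 4 mice per genotype without saying whether a mouse gave both fractions. The comparison therefore asks how the granule genes differ between EpCAM+ and EpCAM- LSK cells of Zeb1-deleted mice.

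Neutrophils store their antimicrobial proteins in granules that are filled in order as the cell matures. The primary or azurophil granules are filled at the promyelocyte stage with myeloperoxidase and the neutrophil serine proteases, and transcription of their genes already begins in multipotent and granulocyte-monocyte progenitors. The specific and gelatinase granules are filled later, in myelocytes and metamyelocytes, with lactoferrin, lipocalin-2 and cathelicidin, and the cytosolic proteins S100A8 and S100A9 also accumulate late. PU.1 and the C/EBP family drive these programs, with C/EBPα early and C/EBPε late, and mature neutrophils are normally removed from LSK cells by the lineage antibodies against MAC1 and GR1.

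The promoters of the 6 members that differed between the fractions are shown because their transcripts carry the results below. Each is the stretch from 250 bases before to 50 bases after the RefSeq transcription start (GRCm38.p6), 5′ to 3′ on the gene's strand. Capitals mark the PU.1 core GAGGAA on either strand.
Mpo promoter, chr11:87793534-87793833, plus strand: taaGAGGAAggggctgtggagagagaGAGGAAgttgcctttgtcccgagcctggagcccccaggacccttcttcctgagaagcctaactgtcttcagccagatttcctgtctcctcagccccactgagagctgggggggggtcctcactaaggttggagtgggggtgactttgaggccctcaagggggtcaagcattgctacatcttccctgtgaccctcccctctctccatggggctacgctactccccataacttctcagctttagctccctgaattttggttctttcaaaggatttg
Elane promoter, chr10:79886062-79886361, plus strand: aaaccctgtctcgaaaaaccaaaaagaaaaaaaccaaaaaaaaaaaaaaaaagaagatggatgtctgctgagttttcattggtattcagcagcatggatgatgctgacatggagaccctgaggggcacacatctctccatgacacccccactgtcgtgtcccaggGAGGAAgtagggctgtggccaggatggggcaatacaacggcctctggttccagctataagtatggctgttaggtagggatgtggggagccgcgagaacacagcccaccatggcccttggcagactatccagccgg
Prtn3 promoter, chr10:79879417-79879716, plus strand: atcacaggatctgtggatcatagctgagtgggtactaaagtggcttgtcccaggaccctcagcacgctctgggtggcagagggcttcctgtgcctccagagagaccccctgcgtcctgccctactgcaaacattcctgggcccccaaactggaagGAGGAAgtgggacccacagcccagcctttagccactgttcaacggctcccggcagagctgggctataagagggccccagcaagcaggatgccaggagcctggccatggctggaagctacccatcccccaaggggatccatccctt
Ctsg promoter, chr14:56102525-56102824, minus strand: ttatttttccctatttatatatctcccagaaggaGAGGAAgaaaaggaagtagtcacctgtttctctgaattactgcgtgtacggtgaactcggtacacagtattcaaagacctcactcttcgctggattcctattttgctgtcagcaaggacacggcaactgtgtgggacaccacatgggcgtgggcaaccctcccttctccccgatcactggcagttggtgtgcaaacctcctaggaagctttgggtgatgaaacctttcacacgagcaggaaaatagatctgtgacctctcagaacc
Ms4a3 promoter, chr19:11640802-11641101, minus strand: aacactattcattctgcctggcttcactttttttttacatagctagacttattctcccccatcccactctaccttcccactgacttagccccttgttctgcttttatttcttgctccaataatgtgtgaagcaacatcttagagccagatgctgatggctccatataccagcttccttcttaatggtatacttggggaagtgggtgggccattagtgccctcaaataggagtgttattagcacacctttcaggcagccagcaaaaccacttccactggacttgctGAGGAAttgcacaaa
Lcn2 promoter, chr2:32387690-32387989, minus strand: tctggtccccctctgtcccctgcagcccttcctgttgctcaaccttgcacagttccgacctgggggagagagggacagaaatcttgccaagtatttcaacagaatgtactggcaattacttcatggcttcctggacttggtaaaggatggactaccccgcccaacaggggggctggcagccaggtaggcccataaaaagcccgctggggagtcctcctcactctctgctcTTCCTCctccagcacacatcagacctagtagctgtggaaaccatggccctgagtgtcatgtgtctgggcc

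All 5 early promoters held the PU.1 core GAGGAA, searched on both strands, as did 28.3% of the 32851 RefSeq promoters of this length. In bases from the start site it lay at -247 and -224 in Mpo, at -85 in Elane, at -95 in Prtn3, at -216 in Ctsg and at 36 in Ms4a3. Among the late members, Lcn2, Ltf and S100a8 held it too. Elane and Prtn3 each had the MYB core CAACNG close behind it on the same strand, at -51 and -56, and Ctsg and Lcn2 had that core as well, while 35.0% of all promoters held it. The C/EBP half-site pair TTNNGNAA was found in 1 early promoter, that of Ms4a3, and in 4 late ones, those of Lcn2, Ltf, S100a8 and S100a9, against 40.7% of all promoters. In Lcn2 one such match shares bases with a match of the MYB core. The RUNX core TGTGGT was found in Ctsg, Ltf and S100a9 (16.8% of all promoters), and the E-box CACCTG, the letters ZEB1 recognises, in the same 3 (20.2%). These are matches of letters, not binding sites. The RefSeq start of Prtn3 lies 5191 bases inside the gene as the table has it, and for the other 9 members the starts differ by at most 513 bases.

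Early members are dispersed in the genome except for one pair. Elane (chr10:79886247-79888215) lies 3072 bases after the end of Prtn3 (chr10:79874476-79883174), both on the plus strand, and Cfd, the complement factor D gene, follows Elane after 2637 bases. Mpo is at chr11:87793581-87804413, Ctsg at chr14:56099881-56102574 and Ms4a3 at chr19:11629496-11640851. Of the late members, S100a8 (chr3:90668978-90670035) and S100a9 (chr3:90692632-90695721) lie 22596 bases apart on opposite strands, and Camp (chr9:109847379-109849617) and Ltf (chr9:111019271-111042767) share chromosome 9, with Lcn2 at chr2:32384633-32388252. The values below are sums over all exons of a gene. Exons of Prtn3 overlap those of Plppr3 on the other strand, and exons of Mpo overlap the antisense gene Gm11505. Whether the counting used strand is not given in the sources used here, so reads from the overlapping stretches cannot be assigned with certainty. Gm11505 itself had 0 to 10 counts, and Plppr3 had 1369 to 1994 counts with no significant change (log2 fold change -0.21, SE 0.11, adjusted p = 0.149).

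Between 15225714 and 17073546 reads were counted in each EpCAM+ library and between 14114491 and 15929923 in each EpCAM- library, and the difference in totals was not significant (exact two-sided permutation test, p = 0.114, n = 4 per fraction). Epcam, the gene of the sorted surface protein, followed the sort, with 2818 to 3580 counts in EpCAM+ and 17 to 144 in EpCAM- libraries. Zeb1 still had 261 to 373 counts in EpCAM+ and 129 to 214 in EpCAM- libraries and was higher in EpCAM+ (log2 fold change 0.72, adjusted p = 0.00798). These counts cover the whole gene, so they do not test the deletion of single exons. The sort antigens moved with the fractions. Ly6a, which encodes SCA-1, had 1786 to 5370 counts in EpCAM+ and 214 to 1149 in EpCAM- libraries (log2 fold change 2.28, adjusted p = 0.00658), and Kit, which encodes C-KIT, had 3988 to 5870 and 2096 to 3930 (log2 fold change 0.45, adjusted p = 0.0276). Levels are given as counts per 1000000 counts (CPM) on the TMM-scaled library size, and every fold change is EpCAM+ against EpCAM-. Genes were tested with edgeR's quasi-likelihood test, adjusted over the 13560 genes by the Benjamini-Hochberg method and called at an adjusted p under 0.05.

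Transcripts of all 5 early members were lower in EpCAM+ than in EpCAM- LSK cells, by 4.17-fold for Prtn3 up to 29.0-fold for Elane. Of the late members only Lcn2 was lower, by 4.14-fold, and Ltf, Camp, S100a8 and S100a9 had differences within the spread of the libraries. No member was higher by edgeR, at an adjusted or an unadjusted p under 0.05 (0 genes), or by DESeq2 (0 genes). Among all tested genes 20.8% were called lower and 21.8% higher in EpCAM+ cells, and the fractions did not overlap for 40.1%. The median log2 fold change was -3.74 over the early members, -0.19 over the late members and 0.02 over all tested genes. In bulk libraries fewer cells that express a gene and less of its RNA per cell cannot be told apart.

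**Figure D1:**
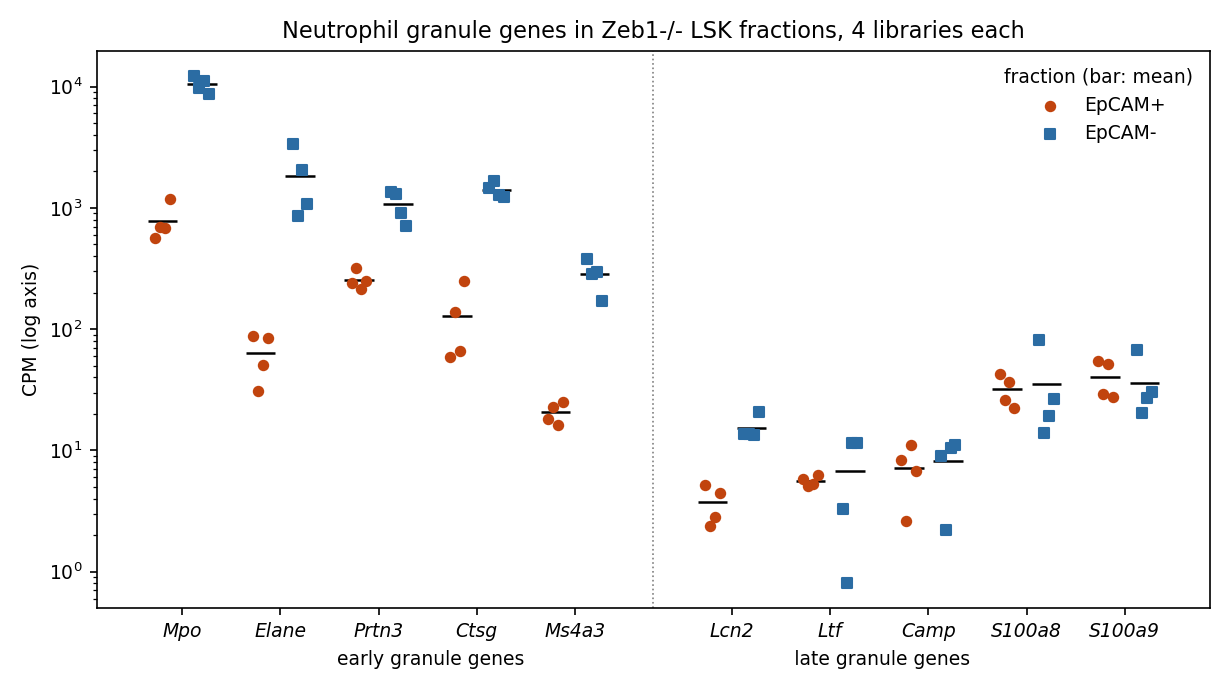
CPM of each member (log axis) in the 4 EpCAM+ libraries (circles) and the 4 EpCAM- libraries (squares), with bars at the means. The 5 early members and Lcn2 show no overlap between the fractions, whereas Ltf, Camp, S100a8 and S100a9 do.

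Mpo encodes myeloperoxidase, the enzyme that makes hypochlorous acid in the azurophil granule. In EpCAM+ replicates 1 to 4 it stood at 566, 697, 686 and 1175 CPM, and in EpCAM- replicates 1 to 4 at 12205, 9773, 11023 and 8739 CPM. Every EpCAM- library was above every EpCAM+ library, with the highest EpCAM+ value in replicate 4. The means were 781 ± 269 and 10435 ± 1505 CPM (SD, n = 4), and the log2 fold change was -3.74 (SE 0.23, adjusted p = 3.81e-05, edgeR's quasi-likelihood test), a 13.4-fold difference. Mpo had more counts than any other gene in all 4 EpCAM- libraries. In the EpCAM+ libraries it ranked 197, 151, 156 and 76.

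Elane encodes neutrophil elastase, the serine protease mutated in severe congenital neutropenia. It stood at 87.3, 30.7, 50.9 and 84.6 CPM in EpCAM+ replicates 1 to 4 and at 3362, 861, 2033 and 1085 CPM in EpCAM- replicates 1 to 4. It varied more than Mpo within the EpCAM- fraction, where the highest library, replicate 1, was 3.90 times the lowest, replicate 2, and still the fractions did not overlap. The means were 63.3 ± 27.4 and 1836 ± 1138 CPM (SD, n = 4). The log2 fold change of -4.86 (SE 0.51, adjusted p = 0.000182, edgeR's quasi-likelihood test) was the farthest from 0 among the members and the 33rd lowest of the 13560 tested genes.

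Prtn3 encodes proteinase 3, the neighbour and close relative of elastase. Its EpCAM+ values were 239, 322, 216 and 247 CPM and its EpCAM- values 1351, 1303, 910 and 713 CPM in replicates 1 to 4. The fractions were again apart, but by the smallest fold among the early members, with means of 256 ± 45.7 and 1069 ± 309 CPM (SD, n = 4) and a log2 fold change of -2.06 (SE 0.21, adjusted p = 0.000179, edgeR's quasi-likelihood test). Although Elane and Prtn3 are neighbours, the ratio of their counts shifted with the fraction. Between 0.0954 and 0.365 Elane counts were found per Prtn3 count in EpCAM+ libraries and between 0.661 and 2.49 in EpCAM- libraries, ranges that do not overlap. The shift was not limited to this neighbour pair. Mpo counts per Prtn3 count were 2.17 to 4.75 in EpCAM+ and 7.50 to 12.3 in EpCAM- libraries. Elane counts per Mpo count overlapped, at 0.0440 to 0.154 and 0.0881 to 0.275. The interval of the log2 fold change (95%) was -5.98 to -3.74 for Elane and -2.52 to -1.60 for Prtn3. These ratios were chosen after their values were seen and were not tested.

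Ctsg encodes cathepsin G, the third serine protease of the azurophil granule. It stood at 58.7, 139, 65.8 and 249 CPM in EpCAM+ replicates 1 to 4 and at 1446, 1678, 1267 and 1236 CPM in EpCAM- replicates 1 to 4. The EpCAM- libraries were close to each other, and the EpCAM+ libraries spread over 4.24-fold, with replicates 2 and 4 high and 1 and 3 low. The means were 128 ± 88.4 and 1407 ± 203 CPM (SD, n = 4), with a log2 fold change of -3.46 (SE 0.42, adjusted p = 0.000326, edgeR's quasi-likelihood test).

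Ms4a3 encodes a membrane protein of granulocyte-monocyte progenitors and their early progeny, used to trace that lineage. Its EpCAM+ values of 18.1, 22.7, 16.2 and 25.2 CPM were all below its EpCAM- values of 378, 286, 296 and 171 CPM. The means were 20.6 ± 4.12 and 283 ± 85.0 CPM (SD, n = 4), and the log2 fold change was -3.78 (SE 0.24, adjusted p = 3.81e-05, edgeR's quasi-likelihood test), a 13.8-fold difference.

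Compared by replicate number, all 5 early members were lower in EpCAM+ cells in 4 of 4 pairs. For these genes the fractions did not overlap, so any pairing of the libraries gives this count, and it is no separate result. The numbered pairs did not differ equally. Pair 4 had the smallest difference for each of the 5, from -1.53 for Prtn3 to -3.68 for Elane on the log2 scale. Pair 1 had the farthest from 0 for Mpo, Prtn3, Ctsg and Ms4a3, with -4.43, -2.50, -4.62 and -4.38, and pair 3 for Elane with -5.32. EpCAM- replicate 4 was the lowest EpCAM- library for 4 early members and EpCAM+ replicate 4 the highest EpCAM+ library for 3 of them, Mpo, Ctsg and Ms4a3.

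**Figure D2:**
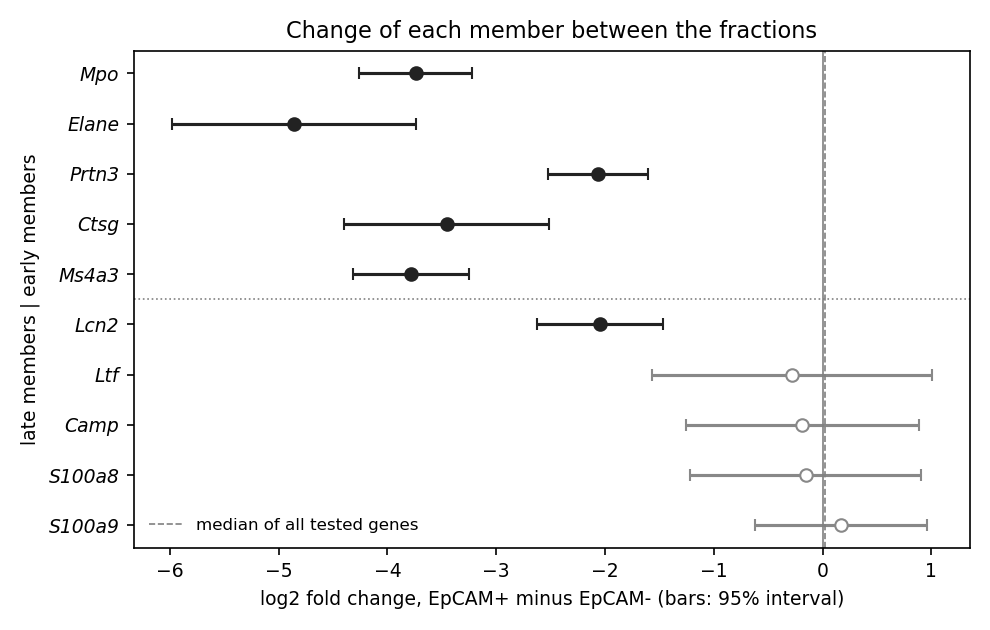
Fitted log2 fold change of each member (EpCAM+ minus EpCAM-) with its 95% interval. Filled circles passed an adjusted p under 0.05 and open circles did not, and the dashed line is the median of all tested genes at 0.02. The 5 early members and Lcn2 lie left of -1, and the intervals of the other 4 late members span 0.

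Among the late members Lcn2, which encodes lipocalin-2, the siderophore-binding protein of the specific granule, was the exception. It stood at 5.23, 2.38, 2.85 and 4.47 CPM in EpCAM+ replicates 1 to 4 and at 13.6, 13.7, 13.4 and 20.8 CPM in EpCAM- replicates 1 to 4. All EpCAM- libraries were above all EpCAM+ libraries, and 3 of them lay close together. The means were 3.73 ± 1.34 and 15.4 ± 3.62 CPM (SD, n = 4), and the log2 fold change was -2.05 (SE 0.26, adjusted p = 0.000386, edgeR's quasi-likelihood test). This is a gene of few reads, with 42 to 80 counts in EpCAM+ and 185 to 283 in EpCAM- libraries.

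Ltf encodes lactoferrin, the iron-binding protein that defines the specific granule. It stood at 5.82, 5.05, 5.31 and 6.23 CPM in EpCAM+ replicates 1 to 4 and at 3.31, 0.814, 11.6 and 11.6 CPM in EpCAM- replicates 1 to 4. The EpCAM+ libraries lay between the EpCAM- libraries, of which replicates 1 and 2 were lower and 3 and 4 higher, over a 14.3-fold range. The lowest value rested on 11 counts. The log2 fold change was -0.28 (95% interval -1.57 to 1.00, adjusted p = 0.717, edgeR's quasi-likelihood test). Lcn2 had an interval of -2.63 to -1.47, and the difference between the 2 genes was not tested.

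Camp encodes the cathelicidin precursor, another specific granule protein. Its values were 8.30, 2.61, 11.1 and 6.81 CPM in EpCAM+ replicates 1 to 4 and 8.99, 2.22, 10.4 and 11.1 CPM in EpCAM- replicates 1 to 4. Replicate 2 was the lowest library in both fractions, and the fractions overlapped over most of their range. The log2 fold change was -0.19 (95% interval -1.26 to 0.89, adjusted p = 0.779, edgeR's quasi-likelihood test).

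S100a8 and S100a9 encode the 2 chains of calprotectin, the calcium-binding complex that makes up much of the neutrophil cytosol. S100a8 stood at 42.4, 26.1, 36.5 and 22.4 CPM in EpCAM+ replicates 1 to 4 and at 81.9, 13.9, 19.1 and 26.4 CPM in EpCAM- replicates 1 to 4. S100a9 stood at 54.2, 29.4, 51.5 and 27.5 CPM in EpCAM+ replicates 1 to 4 and at 66.7, 20.4, 27.1 and 30.2 CPM in EpCAM- replicates 1 to 4. For both genes EpCAM- replicate 1 was the highest library of all 8 and EpCAM- replicate 2 the lowest, with the EpCAM+ libraries between them. The log2 fold change was -0.15 for S100a8 (95% interval -1.22 to 0.91, adjusted p = 0.816) and 0.17 for S100a9 (95% interval -0.62 to 0.96, adjusted p = 0.727, both by edgeR's quasi-likelihood test). The pair kept close to each other, with 1.13 to 1.41 S100a9 counts per S100a8 count in EpCAM+ and 0.814 to 1.47 in EpCAM- libraries.

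Within numbered pairs Ltf, Camp, S100a8 and S100a9 were each lower in EpCAM+ cells in 2 pairs and higher in 2. Single libraries decided the sign of these 4 values. Without EpCAM- replicate 1, S100a8 had a log2 fold change of 0.68 (adjusted p = 0.0622) and S100a9 one of 0.64 (adjusted p = 0.0743), both by edgeR's quasi-likelihood test. None of the 4 was called with any single library left out. The 6 members that were called remained called with each of the 8 libraries left out in turn.

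Summed, the early members amounted to 970 to 1781 CPM in EpCAM+ and 11945 to 18742 CPM in EpCAM- libraries, which do not overlap, and the late members to 65.6 to 116 and 51.1 to 174 CPM, which do. Per 1000 counts of early members, late members had 120, 54.1, 104 and 37.9 counts in EpCAM+ replicates 1 to 4 and 9.31, 3.67, 5.26 and 8.38 counts in EpCAM- replicates 1 to 4. Each EpCAM+ library was above each EpCAM- library. The ratio is that of these 10 genes and follows from the lower early sum, and it was not tested as a score. The longer lists of other early and other late granule genes, given below, had medians close to each other.

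**Figure D3:**
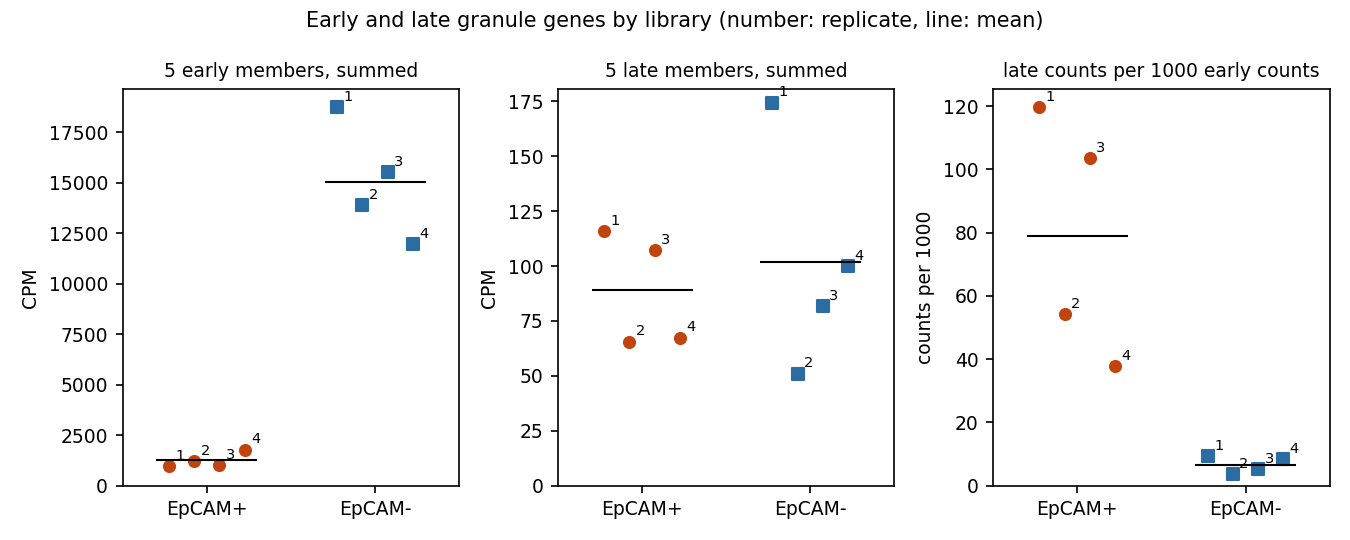
Summed CPM of the 5 early members, summed CPM of the 5 late members, and late counts per 1000 early counts in each library, on axes from 0. Numbers beside the points are replicate numbers and lines are means. The early sum separates the fractions (970 to 1781 against 11945 to 18742 CPM), the late sum does not, and the ratio is higher in all 4 EpCAM+ libraries.

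Levels can be compared between genes per kilobase of exon. In EpCAM- cells the order of the mean level per kilobase was Mpo (3048 CPM per kilobase), Elane (1865), Ctsg (1362), Prtn3 (617), Ms4a3 (150), S100a9 (69.2), S100a8 (50.9), Camp (10.8), Lcn2 (5.87) and Ltf (1.98). The early members thus filled the top 5 places. The ranges of the libraries overlapped between neighbours in this order except between Ctsg and Prtn3, Prtn3 and Ms4a3, S100a8 and Camp, and Lcn2 and Ltf. In EpCAM+ cells the order was Mpo (228 CPM per kilobase), Prtn3 (148), Ctsg (124), S100a9 (77.9), Elane (64.4), S100a8 (45.9), Ms4a3 (10.9), Camp (9.49), Ltf (1.62) and Lcn2 (1.42). Elane thus moved from rank 2 to rank 5 and Ms4a3 from rank 5 to rank 7, behind both calprotectin chains. Here the libraries of neighbours did not overlap only between S100a8 and Ms4a3 and between Camp and Ltf.

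The 6 called members were all more than 4-fold lower in EpCAM+ cells, a size chosen after their values were seen, and 1.39% of the tested genes (189) were called and lower by that much. Prtn3 and Lcn2 were close to that size and fell short of it in some alternatives, down to -1.98 and -1.96 on the log2 scale with other scalings and to -1.93 and -1.87 with a library left out. By log2 fold change counted from the lowest, Elane was 33rd, Ms4a3 65th, Mpo 69th, Ctsg 87th, Prtn3 186th and Lcn2 187th of 13560.

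Other genes of the early granule and promyelocyte program moved in both directions. Here and for each related list below, the counts stand beside 20.8% lower and 21.8% higher among all tested genes. Of 16 such genes 15 were tested, 9 were lower and 2 higher in EpCAM+ cells, and their median log2 fold change was -1.55. The lowest were Hp, encoding haptoglobin, with 3.04 ± 0.346 against 72.9 ± 33.4 CPM (log2 fold change -4.59, adjusted p = 4.41e-05), and Igsf6, encoding an immunoglobulin superfamily membrane protein, with 2.42 ± 1.87 against 44.7 ± 15.8 CPM (log2 fold change -4.24, adjusted p = 0.000245). The 2 that were higher were Lyz2, encoding lysozyme, with 572 ± 40.8 against 356 ± 76.7 CPM (log2 fold change 0.68, adjusted p = 0.00391), and Cd63, encoding a granule membrane tetraspanin, with 433 ± 57.1 against 316 ± 41.4 CPM (log2 fold change 0.46, adjusted p = 0.011). All were tested with edgeR's quasi-likelihood test, and values are mean ± SD with n = 4 per fraction.

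Of 32 other late granule genes 20 were tested, 10 were lower and 3 higher, and the median log2 change was -1.49. Many of these genes were scarce. With at least 10 counts required in every library 11 were tested and 3 were lower, and leaving out EpCAM+ replicate 3 or EpCAM- replicate 1 each left 6. The lowest were Mrgpra2b, encoding a receptor of neutrophils, at 0.539 ± 0.415 against 5.78 ± 1.54 CPM (log2 fold change -3.40, adjusted p = 0.000474), and Trem1, encoding an activating receptor, at 0.8995 ± 0.422 against 5.30 ± 0.757 CPM (log2 fold change -2.55, adjusted p = 0.000405). The highest were Adam8, encoding a metalloprotease, at 11.3 ± 9.06 against 0.627 ± 0.337 CPM (log2 fold change 4.16, adjusted p = 0.00178), and Padi4, encoding the enzyme that citrullinates histones, at 76.2 ± 8.82 against 40.5 ± 12.5 CPM (log2 fold change 0.91, adjusted p = 0.00464). Ngp, encoding a cathelicidin-like granule protein, was not called, with 287 to 552 counts in EpCAM+ and 111 to 1209 in EpCAM- libraries (log2 fold change -0.80, adjusted p = 0.247). Of the genes too low to test, Ly6g, which encodes a GR1 antigen of mature neutrophils, had 0 to 3 counts in every library, Mmp9 0 to 6 and Retnlg 2 to 21, whereas S100a8 had 188 to 1312. Cfd, beside Elane, had 0 to 4 counts.

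Of 22 genes that process or restrain the granule proteases 18 were tested, 6 were lower and 2 higher, and the median log2 change was 0.01. Cst7, encoding cystatin F, an inhibitor of the enzyme that activates the proteases, was lower at 32.7 ± 9.46 against 208 ± 29.3 CPM (log2 fold change -2.67, adjusted p = 7.11e-05). Lman1, encoding a cargo receptor of the secretory pathway, was lower at 107 ± 5.42 against 159 ± 14.0 CPM (log2 fold change -0.57, adjusted p = 0.000526). Cst3, encoding cystatin C, was higher at 2087 ± 1387 against 476 ± 86.7 CPM (log2 fold change 2.13, adjusted p = 0.00417), and so was Serpina3g, a serine protease inhibitor, at 585 ± 115 against 325 ± 14.5 CPM (log2 fold change 0.85, adjusted p = 0.00081). With 2 other scalings, upper quartile and library totals, 4 genes of this list were higher.

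Transcription factors of granulopoiesis showed 8 lower and 4 higher among 21 tested of 22, with a median log2 fold change of -0.14. Cebpe, which encodes the late granule factor C/EBPε, fell most, at 0.998 ± 0.212 against 10.1 ± 5.06 CPM (log2 fold change -3.34, adjusted p = 0.000238). Next came Gata1, the erythroid and megakaryocyte factor, at 42.1 ± 8.10 against 178 ± 73.1 CPM (log2 fold change -2.08, adjusted p = 0.000397). Id2, encoding an inhibitor of basic helix-loop-helix factors, was higher at 167 ± 131 against 13.4 ± 6.80 CPM (log2 fold change 3.63, adjusted p = 0.00178), as was Ets1 at 10.8 ± 1.10 against 5.02 ± 1.08 CPM (log2 fold change 1.11, adjusted p = 0.000982). All values are from edgeR's quasi-likelihood test.

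Of 16 receptors of granulopoiesis 14 were tested, 6 were lower and 1 higher, and the median log2 change was -0.36. The lowest were Fcgr3, encoding an activating Fc receptor, at 5.04 ± 3.05 against 71.8 ± 33.1 CPM (log2 fold change -3.84, adjusted p = 0.000218), and Csf1r, the receptor of the macrophage growth factor, at 1.79 ± 0.973 against 23.5 ± 5.68 CPM (log2 fold change -3.71, adjusted p = 0.000125). Flt3, a cytokine receptor of early lymphoid and dendritic progenitors, was higher at 366 ± 75.5 against 199 ± 57.0 CPM (log2 fold change 0.88, adjusted p = 0.00694). When replicate number was a block, 2 receptors were higher, as without EpCAM- replicate 2, and without EpCAM+ replicate 3 the count of lower ones dropped to 3. The 8 genes of the NADPH oxidase, which makes superoxide next to myeloperoxidase, were all tested, and 3 were lower and 1 higher (median log2 fold change -0.27). Hvcn1, a proton channel, was lower at 5.83 ± 1.64 against 10.9 ± 2.29 CPM (log2 fold change -0.91, adjusted p = 0.00858), and Ncf1 at 41.9 ± 15.1 against 74.4 ± 16.6 CPM (log2 fold change -0.83, adjusted p = 0.018). Cyba was higher at 274 ± 53.9 against 210 ± 16.8 CPM (log2 fold change 0.38, adjusted p = 0.0359), a call that was lost when EpCAM+ replicate 1 or 4 or EpCAM- replicate 2, 3 or 4 was left out.

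**Figure D4:**
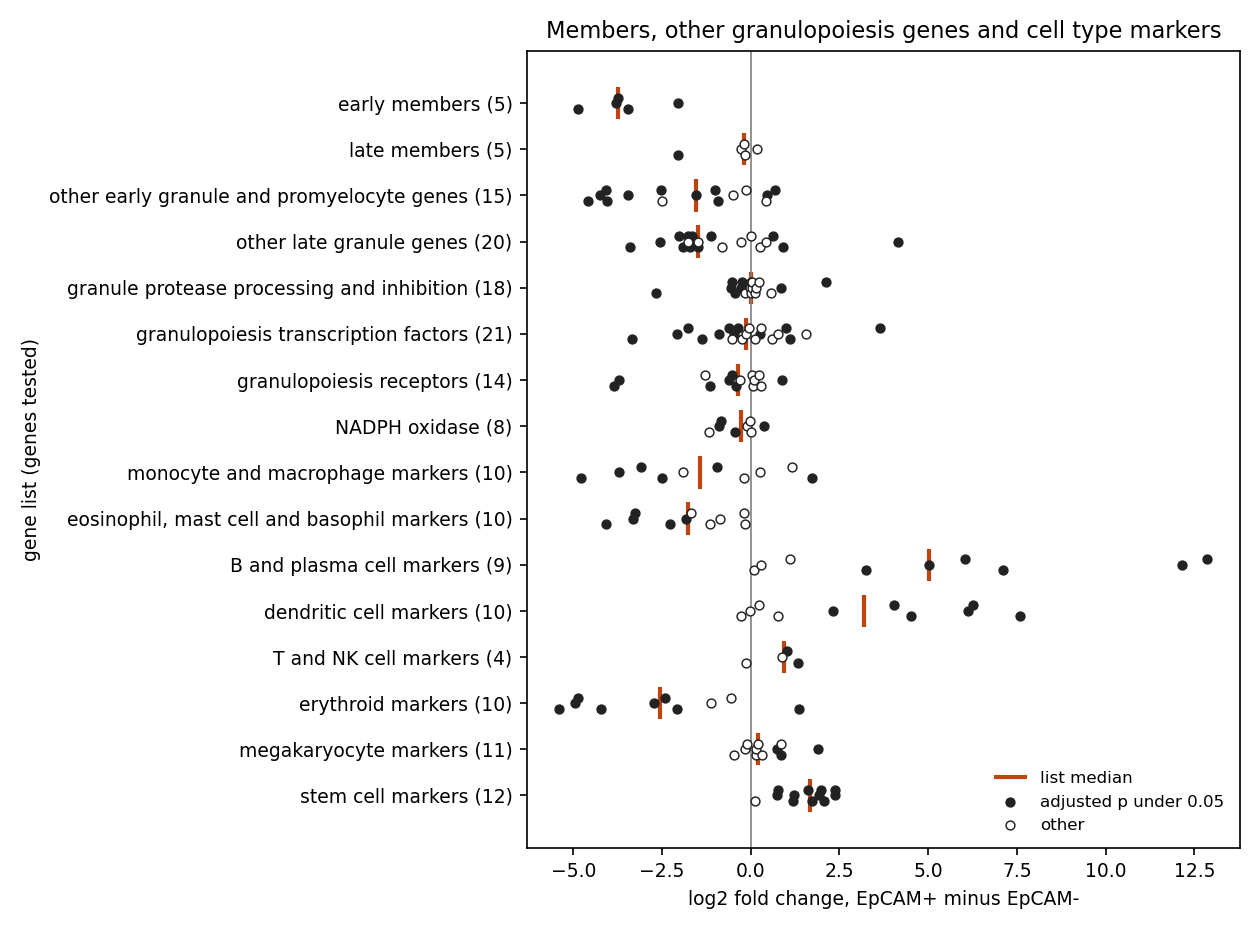
Fitted log2 fold change (EpCAM+ minus EpCAM-) of every tested gene in each list, filled where the adjusted p was under 0.05, with bars at the list medians and the number of tested genes in brackets. The early members lie together at the left with a median of -3.74, while the late members centre at -0.19 and the related lists spread to both sides of 0.

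Markers of other cell types are given here beside the granule genes. Their counts, in this paragraph and the next, stand beside 20.8% lower and 21.8% higher among all tested genes. A list of 4 sort-related genes held Kit and Ly6a of the LSK gate, Ptprc, which encodes CD45, and Epcam. All 4 were higher in EpCAM+ cells, with a median of 1.45 and sums of 768 to 1131 against 348 to 490 CPM. Epcam is the gene by whose protein the fractions were sorted, so its difference was set by the sort and enters the median and the sums. Hdc, Nkg7, Csf1r, Irf8, Cd3e, Cd4, Cd8a and Ly6g each stand in more than 1 list. Of 12 stem cell markers 11 were higher in EpCAM+ cells (median log2 fold change 1.67), and their summed level was 559 to 729 CPM against 209 to 329 CPM. Of 10 tested erythroid markers of 12, 7 were lower and 1 higher (median -2.56), with sums of 55.8 to 117 against 502 to 1228 CPM. Slc4a1, which defines late erythroid cells, had 0 to 4 counts. Of 10 tested markers of eosinophils, mast cells and basophils, of 14, 5 were lower (median -1.76), with sums of 80.5 to 144 against 325 to 644 CPM. Of 10 tested monocyte and macrophage markers of 12, 5 were lower and 1 higher (median -1.43), with sums of 172 to 704 against 384 to 1097 CPM that overlap. Megakaryocyte markers had 3 higher of 11 tested of 12, near the share of all tested genes, with sums of 814 to 1124 against 395 to 694 CPM.

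Of 9 tested B and plasma cell markers, of 12, 6 were higher in EpCAM+ cells, with sums of 3338 to 45484 against 166 to 320 CPM, although Pax5 had no counts and Ebf1 had 0 to 3 counts in any library. Of 10 tested dendritic cell markers of 12, 6 were higher, with sums of 1174 to 13319 against 460 to 735 CPM. Of 4 tested T and NK cell markers of 12, 2 were higher, with sums of 689 to 856 against 702 to 912 CPM. Most of these sums came from Nkg7 alone, at 631 to 794 against 684 to 883 CPM. Nkg7 was not called and also stands in the list of other early granule and promyelocyte genes. Cd3e had at most 1 count. Of 6 targets of the lineage antibodies 2 were tested. Cd4 was higher at 1.98 ± 0.606 against 0.984 ± 0.430 CPM (log2 fold change 1.01, adjusted p = 0.0404), Itgam, which encodes MAC1, was not called at 2.59 ± 0.934 against 3.34 ± 1.46 CPM, and Ly6g was near 0 as given above. Igkc was highest in EpCAM+ replicate 1 (21766 CPM, against 1724 to 3009 in the other 3), the library that was also highest of the EpCAM+ libraries for Elane, Lcn2, S100a8 and S100a9 and lowest for Mpo and Ctsg. Without this library the early members gave the same 5 calls and the late members the same single one. The part of these other cell types in the differences of the granule genes was not tested.

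The 5 protein-coding genes whose log2 CPM over the 8 libraries correlated best with the mean standardised level of the early members were Trem3 (Pearson r = 0.997), Dram1 (0.994), Rgcc (0.992), Hp (0.992) and Cx3cr1 (0.992). All 5 were lower in EpCAM+ cells without overlap, from -1.84 for Rgcc to -4.59 for Hp in log2 fold change. For the late members the best correlated were Nr3c1 (0.939), Naa30 (0.938), Mark2 (0.936), Gigyf2 (0.936) and Atg13 (0.934). These 5 differed little between the fractions, with log2 fold changes from -0.08 to -0.01, and none was called. The early mean separates the fractions and the late mean does not. The differences of these genes between the fractions therefore follow from how they were picked and are no separate result. The correlations are descriptions over 8 libraries that share their fractions and depth.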

How the data were processed

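RNA from 8 samples of Zeb1-/- LSK cells was amplified with the SMART-Seq kit and sequenced as paired ends. According to the study's methods and the submitters' processing notes, the authors trimmed the reads, aligned them to GRCm38.p6 with STAR 2.6.1d, counted reads per gene with featureCounts 1.5.0-p3 and deposited the raw counts used here, without normalization. Strandedness and annotation release are not given in the sources used here, but 54495 of the 54532 gene identifiers are in GENCODE M21. The deposited table also holds FPKM and the authors' fold changes and p-values, which were not used. SMART-Seq amplification without molecular identifiers means that counting error understates the uncertainty of low genes.

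Genes were kept by filterByExpr (minimum count 10), scaled by TMM and tested in edgeR 4.0.16 (R 4.3.3) with the quasi-likelihood test, two-sided, between the 4 EpCAM+ and 4 EpCAM- libraries, with Benjamini-Hochberg adjustment over 13560 genes and a threshold of 0.05. Standard errors and 95% intervals of log2 fold changes came from the F statistic, and log2 CPM added 0.5 counts. Figures were drawn with matplotlib 3.10.9. The procedure was tested on simulated data. Library totals were compared by an exact permutation test, for which 4 against 4 allow no p under 0.0286.

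The members, the gene lists and the tests were chosen with earlier results of these data known. Named genes outside the members were, for each related list, up to 2 with the largest positive and up to 2 with the largest negative fold change among called genes, the neighbouring genes Cfd and Ngp, the 5 genes most correlated with each set, markers of at least 10 CPM, and Epcam, Zeb1, Kit and Ly6a. Cd4 and Itgam, the tested targets of the lineage antibodies, were named outside this rule, at under 10 CPM. Plppr3, Gm11505 and the markers and late genes named for near-zero counts were chosen after their values were seen. Promoters came from RefSeq (GRCm38.p6) by gene symbol, and all 10 members matched.

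The replicate numbers in the sample titles pair the samples, since deviations from the fraction means were shared within a number (correlation across genes 0.185 to 0.330 in 4 of 4 pairs, against -0.198 to 0.0370 in 12 pairs with different numbers). What the numbers share is not stated, and the tests leave the pairing out. Where nothing says that samples came from separate mice, p-values measure only the spread between these samples. No 2 libraries of a fraction were duplicates (chi-square per degree of freedom at least 10.2 in 12 pairs). Alternatives were DESeq2 1.42.0, 3 other scalings, 2 other filters, the replicate number as a block, and each library left out.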

Additional observations from a re-analysis of the deposited data

Results flagged for a closer look

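Lcn2 stood at 20.8 CPM in EpCAM- replicate 4, while the other 3 EpCAM- libraries lay between 13.4 and 13.7 CPM. The gap to the nearest library was 0.967 of the range of the 4. Of 20 groups searched (10 members in 2 fractions) it was the only one, and chance gives about 1 such group in 20. Without this library Lcn2 was still called.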

How the results depend on the processing

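The calls of the 5 early members and of Lcn2 kept their direction and passed the threshold under DESeq2, 3 other scalings, 2 other filters, the replicate block and with each of the 8 libraries left out, with log2 fold changes between -4.01 and -3.62 for Mpo and between -5.10 and -4.40 for Elane when libraries were left out. The 4 late members that were not called changed sign without passing the threshold. With the replicate block Ltf had a log2 fold change of 0.070 and S100a8 at 0.13, and the block left the calls of all members as they were. With libraries left out Ltf ranged from -0.66 to 0.095 (0.095 without EpCAM- replicate 3 and 0.085 without EpCAM- replicate 4), Camp from -0.51 to 0.094 (without EpCAM+ replicate 2), S100a8 from -0.43 to 0.68 (without EpCAM- replicate 1) and S100a9 from -0.037 to 0.64 (-0.037 without EpCAM- replicate 2 and -0.0086 without EpCAM+ replicate 1). Among related lists, the count of other late granule genes lower in EpCAM+ cells, 10, was 3 with 10 counts required in every library, where fewer genes are tested, and 6 to 12 with libraries left out. The count of protease processing genes that were higher, 2, was 4 with upper-quartile scaling and with library totals. Receptors that were higher, 1, were 2 with the replicate block and 1 to 2 with libraries left out, and those lower, 6, were 3 to 6. NADPH oxidase genes that were higher, 1, were 0 to 1. The cause of these changes was not tested. The median log2 fold change of all genes moved from 0.02 to 0.11 with upper-quartile scaling or library totals, and to 0.14 with DESeq2 or with genes of 1 count included. Ltf, Camp and Lcn2 had the fewest reads of the members, 11 to 283 counts in a library.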
